A study of Mus musculus with 20 samples.

Results

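The genes of glycolysis and of the response to low oxygen were followed as a set of 38 members in cells sorted as neutrophils from 5 sources. The members were taken by symbol from the tables of counts and rlog values. No measured value was a rule of the choice, but earlier results of these data were known when it was made. All 38 were found among the 51912 genes of the count table, and all 38 belonged to the 28762 genes tested, those that any library had counted. By role the members are 15 enzymes of the steps from glucose to pyruvate, 2 lactate dehydrogenase subunits, 3 regulatory kinases, 4 transporters, 3 genes of the hypoxia-inducible factor (HIF) pathway and 11 other genes known to be induced by hypoxia.

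Glycolysis splits glucose into pyruvate and yields ATP without oxygen, and lactate dehydrogenase then turns pyruvate into lactate, which leaves the cell through monocarboxylate transporters. Neutrophils hold few mitochondria and are known to draw most of their ATP from this pathway. When oxygen is low, the prolyl hydroxylases of the EGLN family stop marking the alpha subunit of HIF for degradation, and the stabilised factor binds the core ACGTG in the control regions of glycolytic genes and of genes for mitophagy, acid handling and collagen modification.

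The core was searched in the promoters that RefSeq annotates on GRCm38.p6, each taken as 300 bases, from 250 before to 50 after a start of transcription. The table held 52 promoters for 35 of the 38 members, with none for Slc2a3, Bnip3l and Ndrg1. ACGTG, read on both strands and so also counted as CACGT, lay in 29 of these 52 promoters (55.8%) and in 6447 of the 32851 promoters of all genes in the table (19.6%). By gene, 25 of the 35 members (71.4%) and 21.8% of the 27025 genes in the table had it in at least 1 promoter. The palindrome CACGTG, which holds the core on both strands and overlaps both searches, lay in 11.5% of the members' promoters and in 7.15% of all promoters. The 6 promoters written out were chosen because they belong to the members with the core that differed most between tumor and blood. They belong to P4ha2 (chr11:54100674-54100973, plus strand), Car9 (chr4:43506776-43507075, plus strand), Pfkm (chr15:98092339-98092638, plus strand), Slc16a1 (chr3:104638414-104638713, plus strand), Egln3 (chr12:54203825-54204124, minus strand) and P4ha1 (chr10:59323046-59323345, plus strand). Each runs 5′ to 3′ on the strand of its gene, and capitals mark the core. A match describes the letters and is not a measured binding site.
P4ha2: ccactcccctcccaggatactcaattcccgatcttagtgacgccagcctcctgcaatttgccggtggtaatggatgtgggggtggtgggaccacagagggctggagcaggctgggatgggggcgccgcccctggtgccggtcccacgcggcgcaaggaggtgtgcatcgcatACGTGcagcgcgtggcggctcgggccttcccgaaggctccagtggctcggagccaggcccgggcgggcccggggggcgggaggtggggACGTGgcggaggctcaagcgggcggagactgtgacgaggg
Car9: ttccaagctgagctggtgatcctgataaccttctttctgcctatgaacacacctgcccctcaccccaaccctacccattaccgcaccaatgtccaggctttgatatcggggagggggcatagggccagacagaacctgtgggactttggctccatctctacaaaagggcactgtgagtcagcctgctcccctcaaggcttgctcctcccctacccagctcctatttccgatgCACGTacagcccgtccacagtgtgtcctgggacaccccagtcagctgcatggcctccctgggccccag
Pfkm: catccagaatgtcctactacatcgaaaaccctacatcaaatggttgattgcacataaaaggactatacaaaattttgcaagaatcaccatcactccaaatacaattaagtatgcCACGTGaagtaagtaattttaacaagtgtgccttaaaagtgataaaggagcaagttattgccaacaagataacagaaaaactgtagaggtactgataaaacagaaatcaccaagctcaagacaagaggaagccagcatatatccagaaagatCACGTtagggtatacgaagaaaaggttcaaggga
Slc16a1: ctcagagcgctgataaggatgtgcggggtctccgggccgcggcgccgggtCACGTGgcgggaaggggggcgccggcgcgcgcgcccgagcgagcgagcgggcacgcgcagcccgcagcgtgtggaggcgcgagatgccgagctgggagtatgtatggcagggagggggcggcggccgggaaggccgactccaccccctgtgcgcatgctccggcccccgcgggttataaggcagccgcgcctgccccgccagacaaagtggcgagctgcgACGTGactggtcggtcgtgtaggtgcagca
Egln3: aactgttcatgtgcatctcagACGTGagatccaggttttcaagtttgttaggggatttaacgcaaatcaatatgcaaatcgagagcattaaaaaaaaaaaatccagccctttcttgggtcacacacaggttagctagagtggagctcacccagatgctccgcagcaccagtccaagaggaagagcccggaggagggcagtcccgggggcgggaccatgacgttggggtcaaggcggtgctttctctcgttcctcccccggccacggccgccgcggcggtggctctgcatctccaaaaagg
P4ha1: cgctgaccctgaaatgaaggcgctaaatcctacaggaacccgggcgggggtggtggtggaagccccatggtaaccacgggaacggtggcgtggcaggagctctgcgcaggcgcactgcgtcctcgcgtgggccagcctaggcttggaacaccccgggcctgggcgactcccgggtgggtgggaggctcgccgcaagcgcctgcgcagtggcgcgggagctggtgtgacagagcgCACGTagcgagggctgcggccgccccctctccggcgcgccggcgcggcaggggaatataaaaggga

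Counted from the start of transcription, the core began at -78 and 11 in P4ha2, at -16 in P4ha1, at -18 in Car9 and at -229 in Egln3. Slc16a1 and this promoter of Pfkm, the outermost of its 4, each held 1 CACGTG and a further core downstream of the start. No promoter of Gpi1, Pfkl, Pfkp, Tpi1, Eno1, Ldhb, Pfkfb4, Pdk1, Adm or Kdm3a held ACGTG in this window, and variants of this core were not searched.

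The libraries came from young adult C57BL/6 mice. Tumor mice carried a pancreatic ductal adenocarcinoma (PDAC) grown from injected KPC cells, a line from C57BL/6 mice, and sham mice received PBS. At 10 d.p.i. blood was drawn, the animals were perfused with PBS, and neutrophils were sorted as live single cells with high CD11b and high Ly6G from 4 sources in tumor mice (brain, liver, tumor, blood) and from blood alone in sham mice. Each of the 5 groups has 4 libraries, 20 in all, made with SMART-Seq, an amplification for very small inputs that does not mark the strand. The sources used here do not say which libraries share a mouse, so p-values measure the spread between these libraries. Values below follow the replicate numbers, which are 1, 2, 3 and 5 in the tumor, 2, 3, 4 and 5 in the brain and 1 to 4 in the other groups. Levels are CPM, counts scaled to a common library total with TMM factors.

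Libraries held 47388245 to 54472378 counts. The 12 neutrophil markers summed to 4093 to 12164 CPM in the tumor libraries, against 47164 to 67794 in tumor-mouse blood, 64570.2 to 120095 in brain, 26779 to 48907 in liver and 30759.9 to 38269 in sham blood. All 12 were lower in the tumor than in blood. Ly6g, the protein of the sort, averaged 6.65 CPM in the tumor and 204 in tumor-mouse blood. The 10 epithelial markers, led by Krt8 at 680.1 CPM, summed to 1098 to 3825 CPM in the tumor and to 19.54 to 38.44 in tumor-mouse blood. The 12 markers of monocytes and macrophages, led by Apoe, summed to 6513 to 10496 CPM in the tumor and 1093 to 1486 in tumor-mouse blood, while Sall1, a defining gene of microglia, had no count in tumor or blood and Cldn4, an epithelial gene, none outside the tumor. In tumor replicates 1, 2 and 3 the 12 neutrophil markers summed to less than the 12 markers of monocytes and macrophages, so the markers go against the neutrophil label there, and the group is called by its source, the tumor libraries. The part of these cells in the results on the tumor was not tested. TMM factors ran from 1.165 to 1.404 in the tumor and from 0.8325 to 1.079 elsewhere. With library totals alone, the split of all genes called between tumor and blood moved from 3833 higher and 2973 lower to 5301 and 1846, between tumor and brain from 1976 and 2455 to 3677 and 1341, between tumor and liver from 685 and 1842 to 2248 and 886, between liver and blood from 1146 and 345 to 1031 and 535, and between the blood groups from 468 and 486 to 377 and 607.

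**Figure D1:**
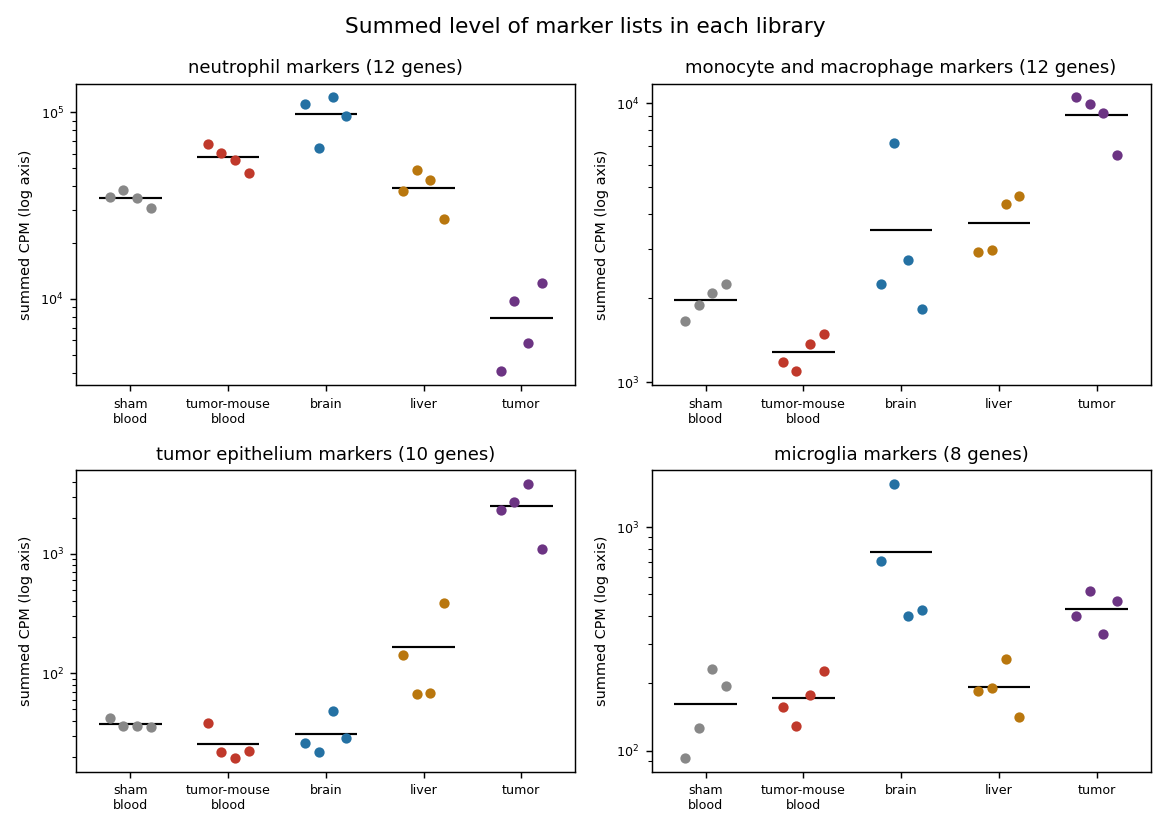
Summed level of 4 marker lists in each library, in CPM on a log axis, with 1 point per library and a line at the group mean. The 4 tumor libraries sit below all others for neutrophil markers, at 4093 to 12164 CPM, and above all others for epithelial markers, at 1098 to 3825 CPM.

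The tumor set the members apart far more than any other source. Against the blood of tumor mice, 28 of the 38 members were higher in the tumor and 6 were lower at an adjusted p under 0.05, where 13.3% of all genes tested were higher and 10.3% lower. The median log2 fold change over the 38 members was 1.66, and 1.65 with Adm and P4ha2 at their lower bounds, beside 0 over all genes tested. With a log2 fold change of at least 2 also required, 16 members passed, where 12.8% of all genes did. Against the brain, 20 members were higher in the tumor and 4 lower (6.87% and 8.54% of all genes), and 13 passed the fold rule (6.51%). Against the liver, 22 were higher and 4 lower (2.38% and 6.4%), and 9 passed the fold rule (2.52%). Many genes tested are barely detected, so the share was also taken over the 8774 genes whose mean reached 10 CPM in some group. Of these, 26.7% were higher and 29.5% lower in the tumor than in blood, against 26 and 6 of the 36 members in that range. Against brain these shares were 16.8% and 23.7%, and against liver 5.92% and 19.8%.

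The other comparisons moved few members. Brain against blood had 7 higher and 3 lower (3.56% and 1.41% of all genes), with 4 past the fold rule (3.07%). Liver against blood had 4 higher and 1 lower (3.98% and 1.2%), with 2 past the fold rule (2.96%). Between brain and liver 1 was higher in the brain and 2 were lower (1.05% and 1.57%), with 0 past the fold rule in edgeR and 0 at an unadjusted p under 0.05 with that fold (1.39%). Blood of tumor mice had 3 members higher and 2 lower than sham blood (1.63% and 1.69%), with 0 past the fold rule and 2, Adm and P4ha2, at an unadjusted p under 0.05 with that fold (1.46%). Among the genes that reached 10 CPM, 7.32% were higher and 4.06% lower in brain than in blood, 10.2% and 3.57% in liver than in blood, 2.69% and 4.56% in brain than in liver, and 4.87% and 4.55% in tumor-mouse than in sham blood. Of the 38 members, 10.5% were higher and 2.63% lower in liver than in blood, 2.63% and 5.26% in brain than in liver, and 7.89% and 5.26% in tumor-mouse than in sham blood. The counts of liver against blood, of brain against liver and between the blood groups are thus near the share of all genes of that level. In brain against blood, 18.4% of the 38 members were higher and 7.89% lower, above that share, a difference that was not tested. The brain, liver and tumor comparisons share the 4 libraries of tumor-mouse blood, so their results are not independent of each other.

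**Figure D2:**
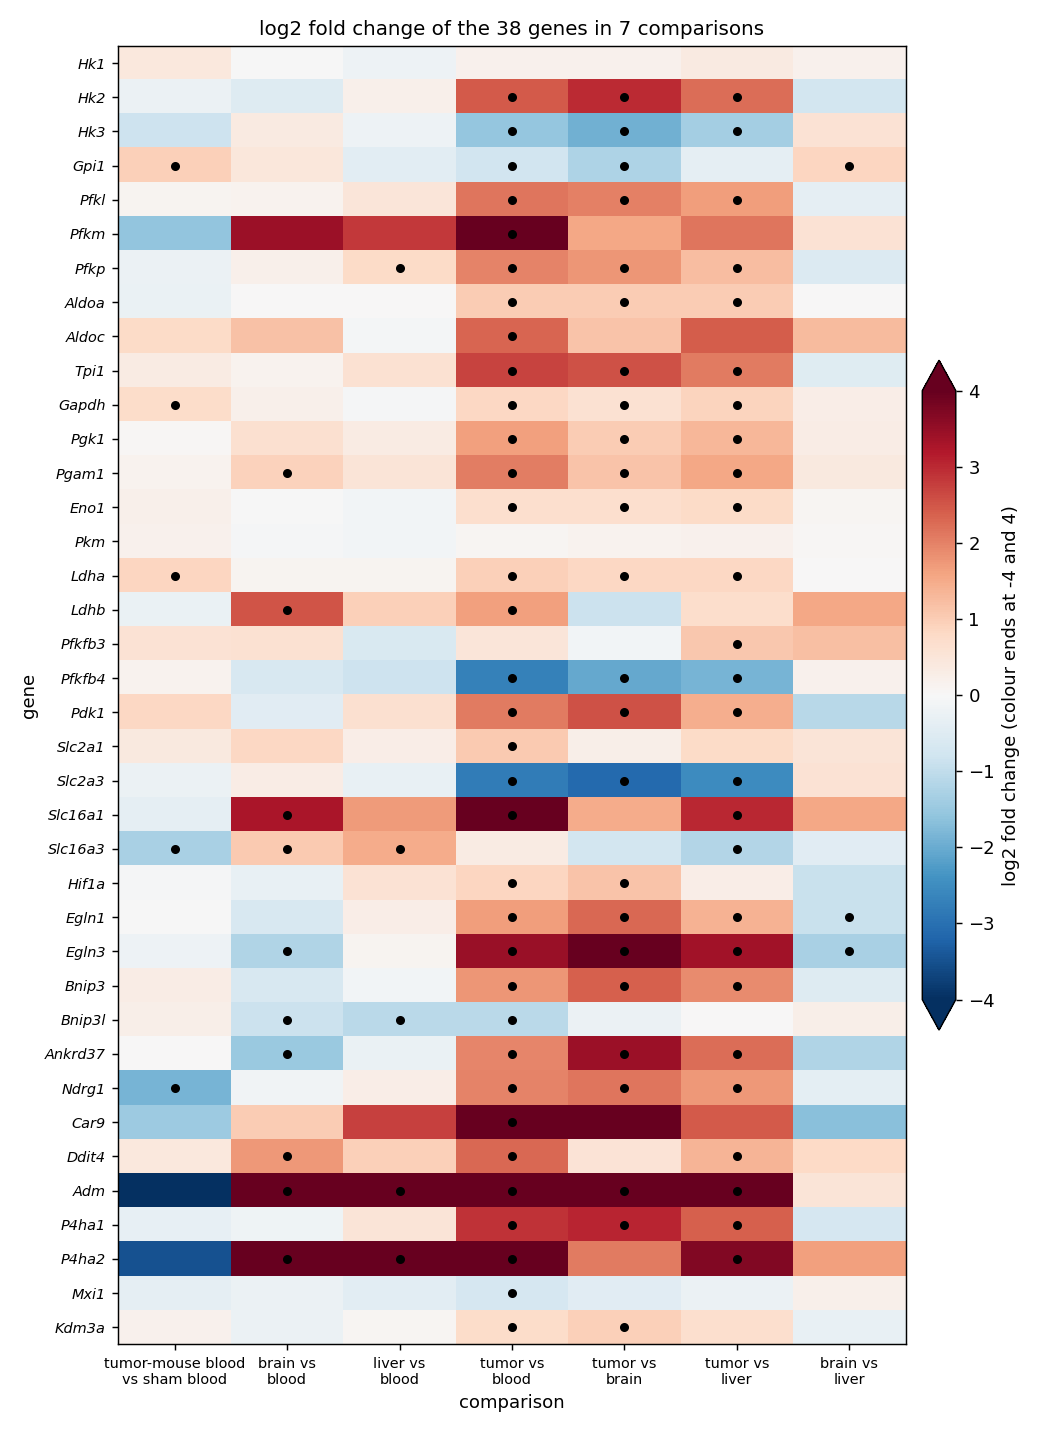
Log2 fold change of each of the 38 genes (lines) in 7 comparisons (columns), red for higher and blue for lower in the first-named group, with a black dot where the adjusted p was under 0.05. The 3 tumor columns hold 34, 24 and 26 dots and the other columns 3 to 10. Colours of Adm and P4ha2 against blood rest on groups with few or no counts.

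Enzymes led the members in every group. Per kilobase of exon, Pkm had the highest level of the members in sham blood, tumor-mouse blood, brain and liver, at 395 ± 61.8, 445 ± 48.2, 427 ± 23.7 and 413 ± 81.9 CPM per kb (SD, n = 4). In the tumor the first members were Ldha at 582 ± 68.0, Aldoa at 509 ± 83.8 and Pkm at 466 ± 37.3 CPM per kb, and neighbours in this order differed by less than the SD of Aldoa. Aldoa and Slc2a3, the neuronal-type glucose transporter, followed Pkm in sham blood at 298 ± 78.2 and 204 ± 42.8 CPM per kb. Tpi1 and Bnip3 entered the 8 highest members only in the tumor, at 243 ± 52.8 and 118 ± 10.5 CPM per kb.

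All 3 genes of the HIF pathway were higher in the tumor than in the blood of tumor mice. The order was Egln3, Egln1 and then Hif1a by fold, and the tumor libraries lay above every library of tumor-mouse blood for each. In bulk RNA, a larger share of a cell type that expresses a gene and more RNA of that gene per cell cannot be told apart. Egln3, a prolyl hydroxylase that marks HIF for degradation and is itself a HIF target, stood at 53.2, 26.9, 24.9 and 21 CPM in sham blood, 18.8, 25.2, 24.7 and 41.6 in tumor-mouse blood, 15.3, 7.39, 8.8 and 16.3 in brain, 22.9, 44, 22.9 and 28.9 in liver and 196, 319.6, 322 and 372 in tumor. Every tumor library was more than 3 times above the highest library of any other source, and the brain held the lowest values. The rise was 11-fold against blood (log2 fold change 3.45 ± 0.35 SE, adjusted p = 3.01e-07), and Egln3 was also higher in tumor than in brain (log2 fold change 4.66 ± 0.38 SE, adjusted p = 3.86e-08) and liver (log2 fold change 3.35 ± 0.35 SE, adjusted p = 2.04e-06). Egln1, the main oxygen-sensing hydroxylase of most cells, was at 61.6, 51.1, 41.1 and 57.3 CPM in sham blood, 53.5, 46.8, 35.5 and 71.5 in tumor-mouse blood, 35.4, 33.9, 21.5 and 43.3 in brain, 56.5, 70.5, 57.1 and 63.4 in liver and 214, 151, 172 and 118 in tumor. Its tumor libraries were the 4 highest and its lowest library was in the brain. Egln1 was 3.16-fold higher in tumor than in blood (log2 fold change 1.66 ± 0.24 SE, adjusted p = 1.61e-05). Hif1a, the oxygen-regulated subunit, ranged over 367 to 416 CPM in the tumor, 179 to 284 in tumor-mouse blood, 145 to 219 in brain, 269.5 to 360.5 in liver and 118 to 404 in sham blood, where replicate 1 held the top value. It was 1.81-fold higher in tumor than in blood (log2 fold change 0.86 ± 0.28 SE, adjusted p = 0.0299), with no overlap. That call ended without tumor-mouse blood replicate 1, 2 or 3 (adjusted p of 0.0554 to 0.0871), and Hif1a did not pass between tumor and liver (log2 fold change 0.27 ± 0.28 SE, adjusted p = 0.606).

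Of the 11 other hypoxia-induced genes, 9 were higher and 2 lower in the tumor than in blood. The higher ones serve mitophagy, collagen modification, acid handling, growth control and vessel tone, and the lower ones were Bnip3l and Mxi1. P4ha1 and P4ha2 are the catalytic subunits of collagen prolyl hydroxylase. P4ha1 was at 36.3, 17.5, 31.9 and 18.7 CPM in sham blood, 27.5, 17, 22.3 and 16.4 in tumor-mouse blood, 11.6, 34.4, 20.3 and 7.91 in brain, 32.1, 33.4, 26.3 and 27.1 in liver and 157, 160.2, 132 and 169 in tumor. Its 4 tumor libraries lay at 132 to 169 CPM and no other library was above 36.3 CPM. The rise over blood was 7.43-fold (log2 fold change 2.89 ± 0.35 SE, adjusted p = 2.28e-06), and P4ha1 also passed against brain (log2 fold change 3.06 ± 0.35 SE, adjusted p = 2.22e-06) and liver (log2 fold change 2.38 ± 0.34 SE, adjusted p = 5.85e-05). P4ha2 was at 0, 0.0388, 0.039 and 0.0192 CPM in sham blood, 0, 0, 0 and 0 in tumor-mouse blood, 2.76, 2.61, 10.9 and 5.86 in brain, 0.631, 1.89, 1.8 and 2.77 in liver and 47.6, 12.2, 28.7 and 4.2 in tumor. It had no count in tumor-mouse blood, so the tumor was at least 1443-fold higher against a floor of 3 counts over the group, the brain at least 344-fold and the liver at least 110.4-fold. The tumor libraries spread more than 10-fold, and replicate 5 lay below 2 of the brain libraries. P4ha2 was higher in tumor than in liver (log2 fold change 3.71 ± 0.77 SE, adjusted p = 0.00363) and did not pass against brain (log2 fold change 2.07 ± 0.72 SE, adjusted p = 0.0603). The call against liver ended with lane as a term (adjusted p = 0.0781) and with tumor replicates 2 and 5 alone (0.253).

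Adm, the gene of the vasodilator peptide adrenomedullin, was also without a count in tumor-mouse blood. Its levels were 0, 0.659, 0 and 0 CPM in sham blood, 0, 0, 0 and 0 in tumor-mouse blood, 1.12, 0.58, 2.4 and 0.886 in brain, 2.29, 0.29, 0 and 0.851 in liver and 41.3, 14.4, 57.4 and 19.1 in tumor. The tumor libraries were the 4 highest and the brain and liver libraries lay at or below 2.40 CPM. Against the floor of 3 counts over the group the tumor was at least 2057-fold, the brain at least 77.6-fold and the liver at least 53.5-fold higher than tumor-mouse blood. Adm was also higher in tumor than in brain (log2 fold change 4.73 ± 1.37 SE, adjusted p = 0.0236) and liver (log2 fold change 5.26 ± 1.41 SE, adjusted p = 0.0226). Of its 5 calls, 3 ended when single libraries were left out, those of tumor against brain (brain replicate 2, 3 or 5 or tumor replicate 3, adjusted p of 0.0535 to 0.0682), of tumor against liver (liver replicate 2 or 4 or tumor replicate 1 or 3, up to 0.0731) and of liver against blood (tumor-mouse blood replicate 1, 2 or 3 or liver replicate 1, 0.0558 to 0.0609). Car9, a carbonic anhydrase of the cell surface that handles acid, was low, with 1.42 to 10.7 CPM in the tumor and at most 2.68 CPM in any other library. Its lowest tumor library, replicate 5, lay below the highest liver library. Car9 was higher in tumor than in blood (log2 fold change 5.17 ± 1.5 SE, adjusted p = 0.0143), and 9.29% of its exon bases overlap an antisense gene.

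Bnip3 and Bnip3l, related receptors that send mitochondria to autophagy, went in opposite directions. Bnip3 was at 87.3, 54.6, 53.9 and 57.8 CPM in sham blood, 66.8, 78.8, 70.8 and 96.9 in tumor-mouse blood, 47.1, 57.4, 49.9 and 48.6 in brain, 52.6, 92, 72.6 and 74.6 in liver and 288, 276, 277 and 234 in tumor. All tumor libraries lay between 234 and 288 CPM and all others at or below 96.9 CPM. The rise over blood was 3.43-fold (log2 fold change 1.78 ± 0.19 SE, adjusted p = 5.72e-07), with 2.40 ± 0.20 (SE) on the log2 scale against brain and 1.88 ± 0.19 against liver. Bnip3l ranged over 188 to 244 CPM in the tumor, 214 to 273 in brain, 194 to 234 in liver, 273 to 724 in tumor-mouse blood and 345 to 419 in sham blood. It was lower in tumor (log2 fold change -1.08 ± 0.21 SE, adjusted p = 0.000579), liver (log2 fold change -1.09 ± 0.21 SE, adjusted p = 0.00297) and brain (log2 fold change -0.85 ± 0.21 SE, adjusted p = 0.0204) than in tumor-mouse blood, and the brain and blood values overlapped. The top blood value, 724 CPM in replicate 4, came from the library with the most erythroid markers, 66924 CPM over 7 genes against 5259.9 to 21905 in the other libraries of that group, and the part of red cells was not tested. Without that library the fall in the brain no longer passed (adjusted p = 0.0937). Of the exon bases of Bnip3, 22.3% overlap an antisense gene.

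Ankrd37, an ankyrin repeat gene known as a HIF target, was at 21.3, 10.3, 14.6 and 6.34 CPM in sham blood, 13.3, 13.9, 14.6 and 10.9 in tumor-mouse blood, 7.28, 5.49, 4.59 and 1.51 in brain, 7.84, 16.3, 8.3 and 11.3 in liver and 42.9, 55.3, 46.5 and 59.4 in tumor. The tumor libraries were the 4 highest and the 4 brain libraries and sham replicate 4 the 5 lowest. It was 3.88-fold higher in tumor than in blood (log2 fold change 1.96 ± 0.40 SE, adjusted p = 0.000769) and higher than in brain (log2 fold change 3.43 ± 0.42 SE, adjusted p = 4.87e-06) and liver (log2 fold change 2.22 ± 0.40 SE, adjusted p = 0.000655). Because reads carry no strand, the 22.7% of its exon bases that overlap Lrp2bp cannot be assigned to either gene. Ddit4, an inhibitor of mTORC1 signalling induced by stress and low oxygen, was at 7.93, 11, 7.53 and 10.1 CPM in sham blood, 4.36, 7.58, 12.3 and 24.4 in tumor-mouse blood, 44.9, 38, 38.3 and 40.9 in brain, 12.7, 21.8, 28.7 and 30.2 in liver and 44.3, 61.6, 58.5 and 74 in tumor. Tumor and brain libraries lay above all blood libraries, and tumor replicate 1 fell within the brain range. Ddit4 was higher in tumor (log2 fold change 2.29 ± 0.38 SE, adjusted p = 9.16e-05) and in brain (log2 fold change 1.74 ± 0.37 SE, adjusted p = 0.00712) than in blood, and did not pass between tumor and brain (log2 fold change 0.56 ± 0.36 SE, adjusted p = 0.307).

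Ndrg1, a stress-response gene, was at 176, 92.8, 126 and 107 CPM in sham blood, 54.3, 41.8, 21.2 and 21 in tumor-mouse blood, 51.5, 27.5, 21.1 and 24.5 in brain, 70, 38.9, 24.7 and 30.9 in liver and 216, 100.5, 176 and 56.5 in tumor. Sham blood and 3 tumor libraries held the highest values, and tumor replicate 5, at 56.5 CPM, lay just above the highest blood library of tumor mice and below the highest liver library. It was higher in tumor than in tumor-mouse blood (log2 fold change 1.99 ± 0.42 SE, adjusted p = 0.00108) and lower in tumor-mouse than in sham blood (log2 fold change -1.86 ± 0.42 SE, adjusted p = 0.0121). The last call ended without replicate 3 or 4 of tumor-mouse blood (adjusted p of 0.0506 and 0.0707). Kdm3a, a histone demethylase that needs oxygen, and Mxi1, an antagonist of Myc, differed by less. Kdm3a ranged over 124 to 194 CPM in the tumor and 78.7 to 119 in blood (log2 fold change 0.73 ± 0.27 SE, adjusted p = 0.0497), a call that ended without any 1 of 13 libraries of all 5 groups, among them tumor-mouse blood replicates 1, 3 and 4 and tumor replicates 2 and 5 (adjusted p of 0.0524 to 0.129). Mxi1 ranged over 120.4 to 156 CPM in the tumor and 158 to 306 in blood (log2 fold change -0.67 ± 0.23 SE, adjusted p = 0.0397), and its call ended without tumor-mouse blood replicate 1 or 2 or any tumor library (adjusted p of 0.0536 to 0.16), with DESeq2's size factors (0.0951) and with library totals (0.512).

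**Figure D3:**
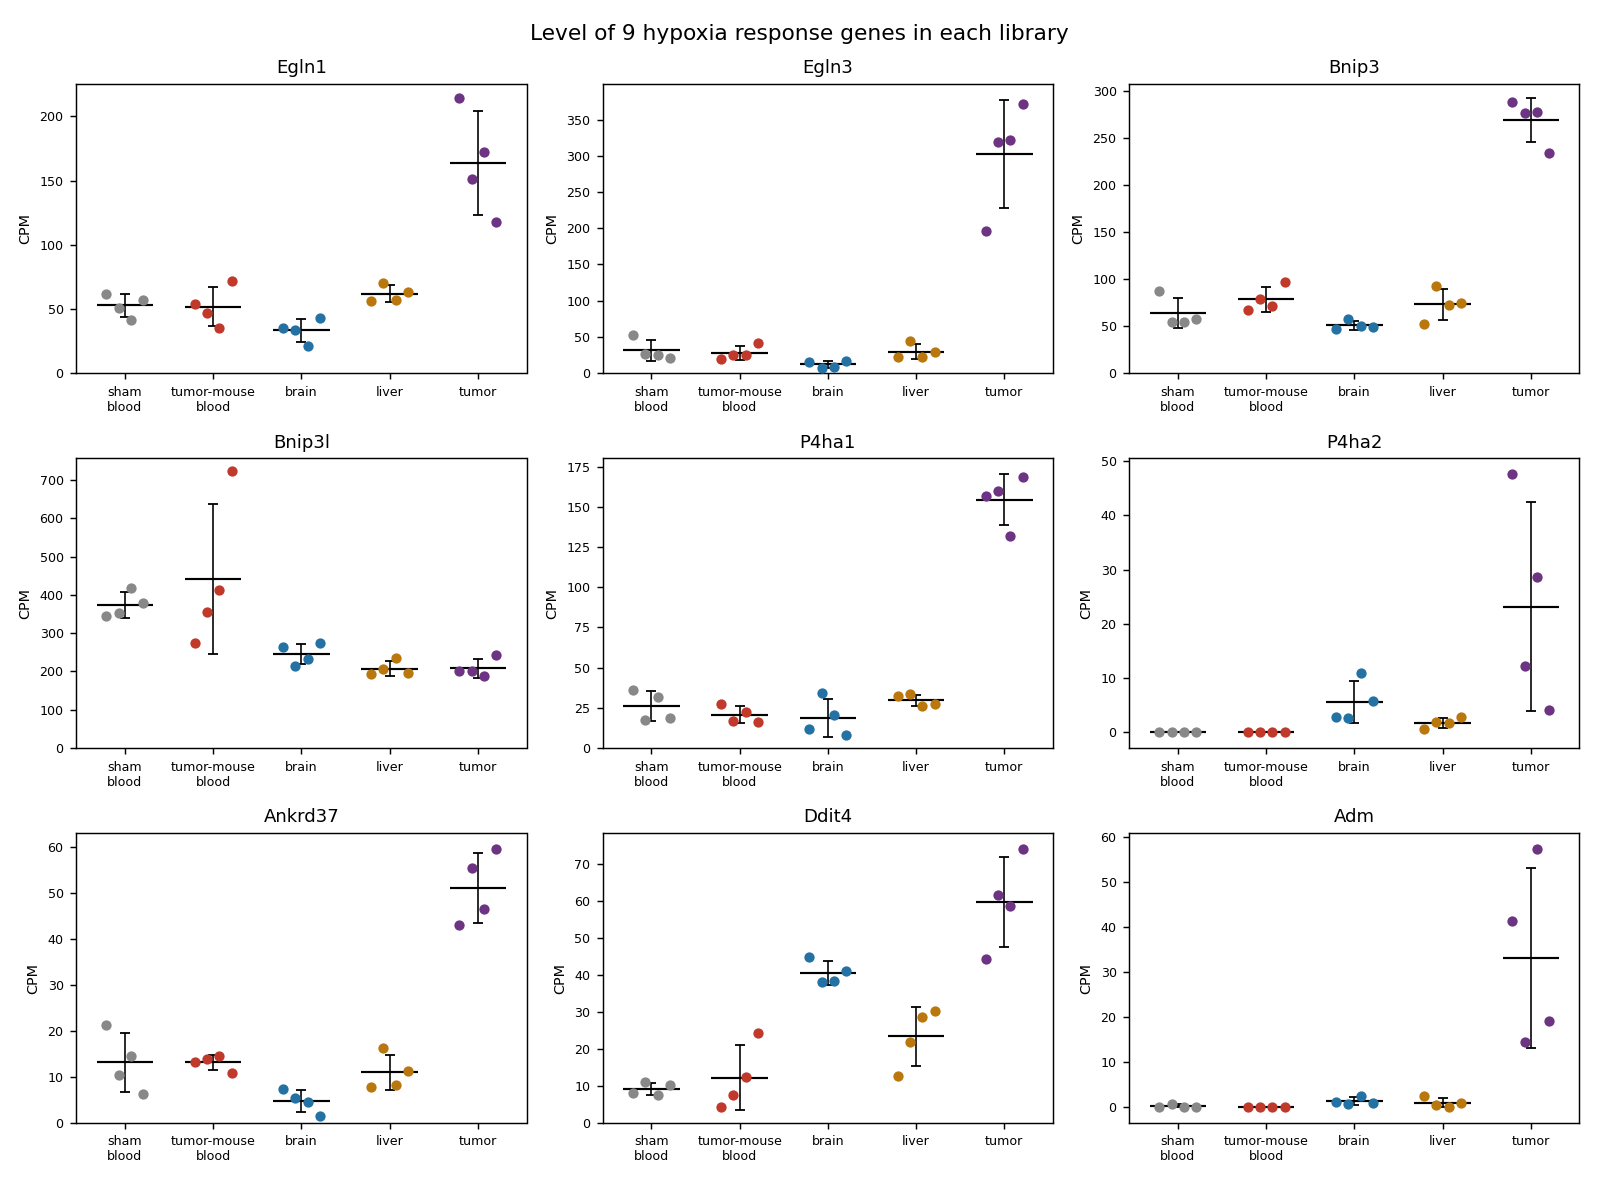
Level of 9 hypoxia response genes in CPM, with 1 point per library, a line at the group mean and bars of 1 SD (n = 4 per group). Tumor libraries lie above all others for Egln1, Egln3, Bnip3, P4ha1, Ankrd37 and Adm, while Bnip3l in tumor, liver and brain lies below every sham library.

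Of the 15 enzymes from glucose to pyruvate, 11 were higher in the tumor than in blood, 2 were lower and 2 did not pass. The rise was spread over the pathway: at least 1 enzyme of each step was higher, except glucose-6-phosphate isomerase, which was lower, and pyruvate kinase, which did not pass. Hexokinase, which traps glucose by phosphorylation, is encoded by Hk1, Hk2 and Hk3. Hk2, the inducible form, was at 41, 47.1, 40.1 and 24.7 CPM in sham blood, 56, 42.9, 15.2 and 15.6 in tumor-mouse blood, 19.5, 40.1, 4.08 and 26 in brain, 50.6, 43.8, 23.5 and 31.4 in liver and 134, 180.1, 196 and 195 in tumor. The 4 tumor libraries were the highest, and brain replicate 4 was the lowest of all. Hk2 was 5.43-fold higher in tumor than in blood (log2 fold change 2.44 ± 0.49 SE, adjusted p = 0.000712), and also higher than in brain (log2 fold change 2.97 ± 0.50 SE, adjusted p = 0.000192) and liver (log2 fold change 2.24 ± 0.49 SE, adjusted p = 0.00381). Hk3, the form known from myeloid cells, ranged over 78.5 to 121 CPM in the tumor against 181 to 404 in tumor-mouse blood, 269 to 468 in brain, 144 to 316 in liver and 466 to 649 in sham blood. It was 2.93-fold lower in tumor than in blood (log2 fold change -1.55 ± 0.26 SE, adjusted p = 8.79e-05) with no overlap. Hk1 ranged over 131 to 174 CPM in the tumor and 122 to 159 in blood and did not pass (log2 fold change 0.16 ± 0.15 SE, adjusted p = 0.471).

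Gpi1, which turns glucose 6-phosphate into fructose 6-phosphate, was the other enzyme that was lower in the tumor. It ranged over 565 to 871 CPM in the tumor, 948 to 1349 in tumor-mouse blood, 1270.3 to 1727 in brain, 639 to 1112 in liver and 513 to 650.2 in sham blood. Its mean was highest in the brain, and tumor replicate 1 was far above the other 3. The fall in tumor against blood (log2 fold change -0.78 ± 0.19 SE, adjusted p = 0.00339) did not pass with library totals in place of TMM (log2 fold change -0.31, adjusted p = 0.183), nor with lane as a term (0.0542). Reads over 11.5% of the exon bases of Gpi1 can belong to an overlapping lincRNA.

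Phosphofructokinase, the committed step, is encoded by Pfkl, Pfkm and Pfkp. Pfkl, the liver type, was at 101, 61.8, 50.6 and 53.6 CPM in sham blood, 43.6, 62.3, 83 and 101 in tumor-mouse blood, 74.7, 71.9, 82.9 and 88.8 in brain, 82.9, 103, 98.2 and 123 in liver and 371, 346, 320.1 and 253 in tumor. Tumor libraries held 253 to 371 CPM, more than 2 times the highest other library. Pfkl was 4.45-fold higher in tumor than in blood (log2 fold change 2.15 ± 0.25 SE, adjusted p = 1.08e-06). Pfkp, the platelet type, was at 114, 76.2, 78.8 and 80.1 CPM in sham blood, 71.4, 65, 74.7 and 81.5 in tumor-mouse blood, 65.9, 94.6, 106 and 72.3 in brain, 114, 116, 114 and 147 in liver and 300.1, 282, 273 and 299.6 in tumor. The tumor libraries were again the 4 highest, and liver replicate 4 stood above the other livers. Pfkp was 3.95-fold higher in tumor than in blood (log2 fold change 1.98 ± 0.18 SE, adjusted p = 6.36e-08), and its smaller rise in the liver (log2 fold change 0.75 ± 0.17 SE, adjusted p = 0.0107) did not pass without liver replicate 4 (adjusted p = 0.0627). Pfkm, the muscle type, was low, with 1.92 to 8.93 CPM in the tumor, 0.0441 to 0.302 in tumor-mouse blood and up to 5.86 in brain replicate 3 (log2 fold change 4.96 ± 1.22 SE, adjusted p = 0.00436).

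Aldolase, which splits the hexose, is encoded here by Aldoa and Aldoc. Aldoa ranged over 1205 to 1720.2 CPM in the tumor and 562 to 916 in tumor-mouse blood, and was higher in tumor (log2 fold change 1.03 ± 0.20 SE, adjusted p = 0.000498). Aldoc, the brain type, was at 0, 2.19, 3.67 and 3.7 CPM in sham blood, 4.86, 3.88, 5.76 and 1.92 in tumor-mouse blood, 6.65, 13, 9.03 and 8.6 in brain, 4.95, 4.7, 4.95 and 0.871 in liver and 29.4, 21.9, 22.4 and 8.39 in tumor. Tumor replicates 1, 2 and 3 stood at 21.9 to 29.4 CPM, while replicate 5 lay within the brain range. The rise of Aldoc over blood (log2 fold change 2.32 ± 0.83 SE, adjusted p = 0.0464) is close to the threshold, and it ended without any 1 of 12 libraries of all 5 groups, among them each of tumor-mouse blood and tumor replicates 1, 2 and 3 (adjusted p of 0.0515 to 0.112).

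Tpi1, triose-phosphate isomerase, had the largest rise of the enzymes above 10 CPM. It was at 76.2, 71.3, 86.4 and 88.5 CPM in sham blood, 112, 82.3, 99.7 and 115 in tumor-mouse blood, 131, 78.3, 134 and 109.5 in brain, 136, 182, 171 and 137 in liver and 819.8, 720.1, 658 and 474 in tumor. The lowest tumor library, replicate 5 at 474 CPM, was more than 2 times the highest other library, 182 CPM in liver replicate 2. Tpi1 was 6.54-fold higher in tumor than in blood (log2 fold change 2.71 ± 0.20 SE, adjusted p = 9.85e-09), than in brain (log2 fold change 2.56 ± 0.20 SE, adjusted p = 3.09e-08) and than in liver (log2 fold change 2.09 ± 0.20 SE, adjusted p = 7.94e-07). Gapdh, which carries out the oxidation step, ranged over 1028 to 1370.4 CPM in the tumor, 547 to 904 in tumor-mouse blood and 357 to 481 in sham blood, with no overlap between any pair of these groups. It was higher in tumor than in tumor-mouse blood (log2 fold change 0.83 ± 0.18 SE, adjusted p = 0.00157), and higher in tumor-mouse than in sham blood (log2 fold change 0.74 ± 0.18 SE, adjusted p = 0.0217), where the call ended without sham replicate 2 or 4 or tumor-mouse replicate 1 (adjusted p of 0.0737 to 0.0856). Pgk1, which makes the first ATP, ranged over 82.5 to 190.4 CPM in the tumor and 25.3 to 60.2 in blood (log2 fold change 1.64 ± 0.27 SE, adjusted p = 8.44e-05).

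Pgam1, phosphoglycerate mutase, was at 55.7, 42.2, 32.4 and 39.6 CPM in sham blood, 43.2, 52, 45.5 and 45.7 in tumor-mouse blood, 93.4, 63.2, 107 and 90.3 in brain, 55.1, 82.2, 72 and 59.5 in liver and 214, 199.9, 196 and 169.5 in tumor. Tumor libraries were the 4 highest, and every brain library lay above every blood library. Pgam1 was 4.18-fold higher in tumor than in blood (log2 fold change 2.06 ± 0.19 SE, adjusted p = 1.22e-07) and 0.93 ± 0.19 (SE) higher on the log2 scale in brain than in blood (adjusted p = 0.00477). Eno1, enolase, ranged over 1425 to 1977 CPM in the tumor and 1009 to 1137 in blood (log2 fold change 0.66 ± 0.15 SE, adjusted p = 0.00206). Pkm, pyruvate kinase, had overlapping ranges in every source, with 2086 to 2522 CPM in the tumor, 1877 to 2429 in tumor-mouse blood, 1974 to 2255 in brain, 1494 to 2390.2 in liver and 1733 to 2379 in sham blood (log2 fold change 0.07 ± 0.16 SE, adjusted p = 0.881). Glycolytic enzymes have many processed pseudogenes, and the sources used here do not say how reads with several places in the genome were counted, so the levels of Tpi1, Gapdh, Pgk1, Pgam1, Eno1, Aldoa and Ldha are uncertain. The named copies of Aldoa, Gapdh, Pgk1, Pgam1, Eno1, Ldha, Bnip3 and Bnip3l that were looked up each held at most 0.789% of the counts of the member, and no copy of Tpi1 was among them.

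**Figure D4:**
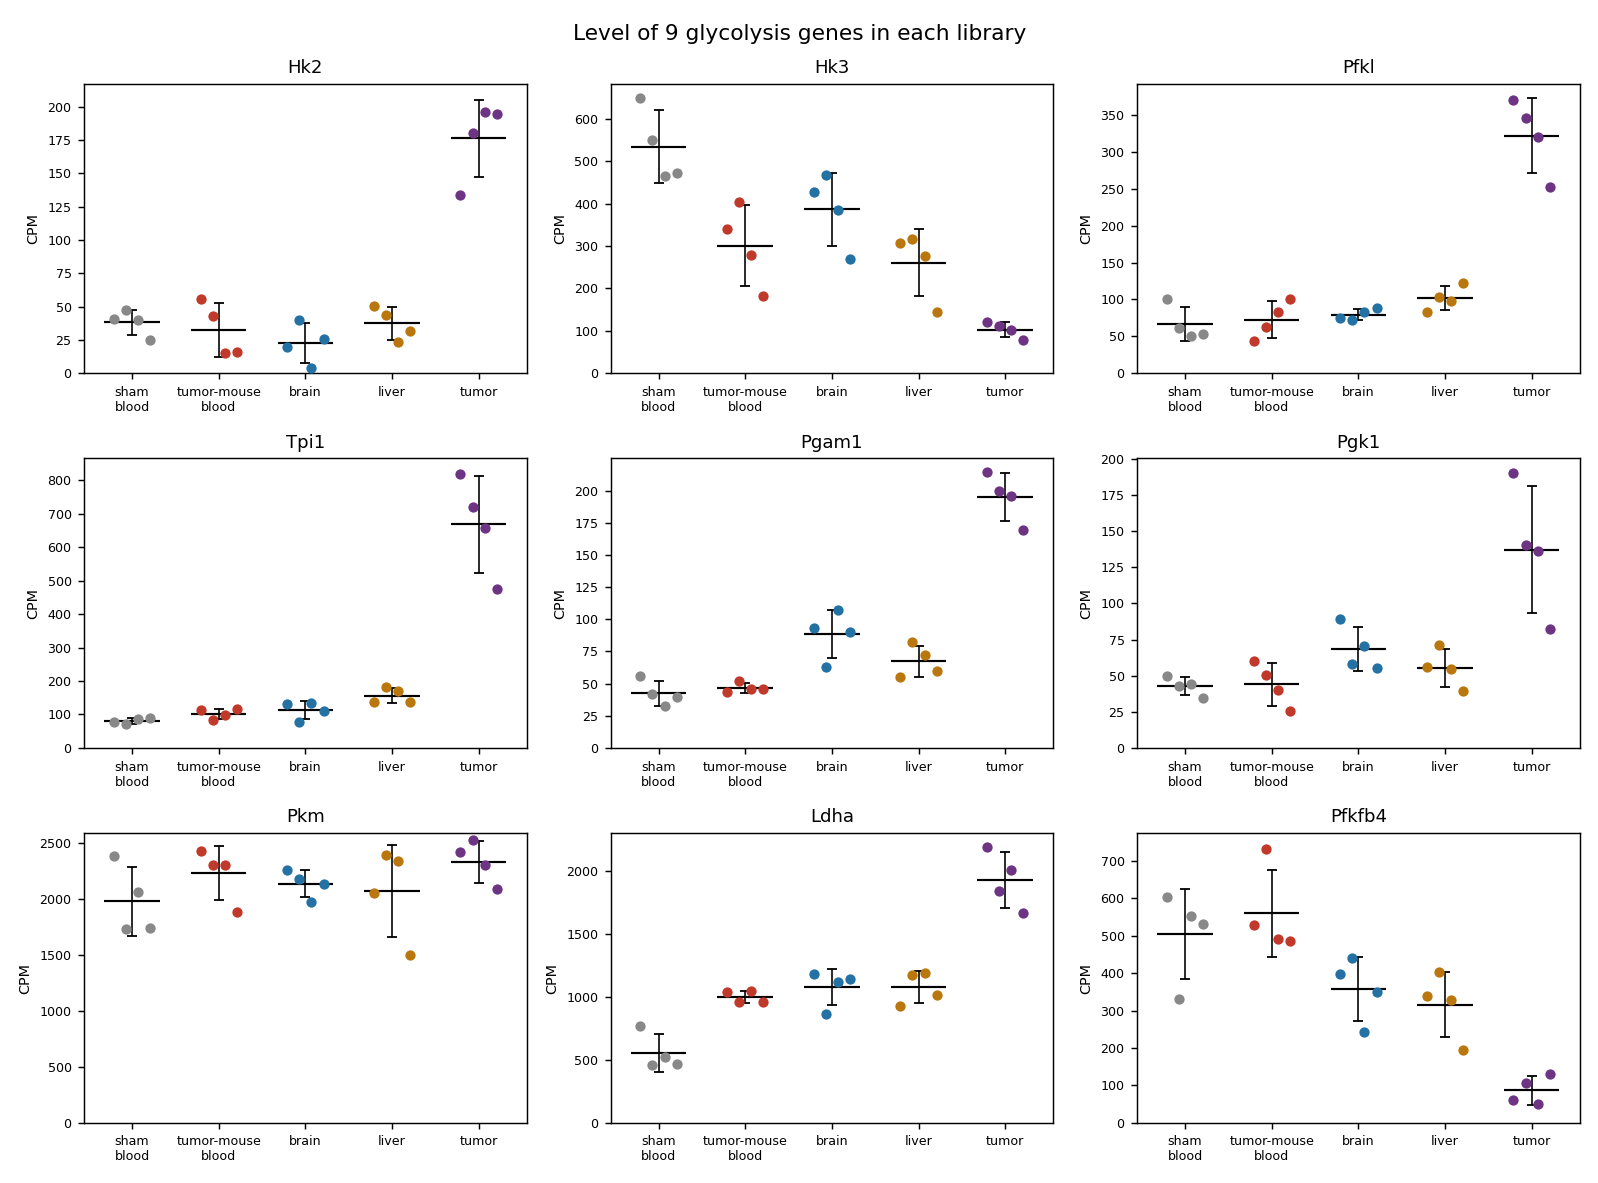
Level of 9 glycolysis genes in CPM, with 1 point per library, a line at the group mean and bars of 1 SD (n = 4 per group). Tumor libraries lie above all others for Hk2, Pfkl, Tpi1, Pgam1 and Ldha and below all others for Hk3 and Pfkfb4, while Pkm spans 1494 to 2522 CPM over all 20 libraries.

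Lactate dehydrogenase was dominated by Ldha, the subunit that favours lactate. Ldha ranged over 1665 to 2190.0 CPM in the tumor, 955 to 1044 in tumor-mouse blood, 866 to 1181 in brain, 927 to 1188 in liver and 461 to 771 in sham blood. It was higher in tumor than in tumor-mouse blood (log2 fold change 0.95 ± 0.17 SE, adjusted p = 0.000247) and higher in tumor-mouse than in sham blood (log2 fold change 0.85 ± 0.17 SE, adjusted p = 0.0054), with no overlap in either. Ldhb, the subunit of oxidative tissues, was at 2.42, 1.18, 4.21 and 9.01 CPM in sham blood, 6.04, 1.81, 2.23 and 3.95 in tumor-mouse blood, 12.1, 30.4, 29.5 and 7.95 in brain, 8.97, 5.22, 7.93 and 5.15 in liver and 15.2, 12.1, 9.61 and 7.29 in tumor. The highest libraries were brain replicates 3 and 4, at 30.4 and 29.5 CPM, and replicate 3 was the brain library with the most microglia markers, 1556 CPM over 8 genes against 401 to 704 in the others, while replicate 4 had the fewest, and the part of microglia was not tested. Ldhb was higher in brain (log2 fold change 2.51 ± 0.58 SE, adjusted p = 0.012) and in tumor (log2 fold change 1.65 ± 0.56 SE, adjusted p = 0.0353) than in blood. The tumor call ended without tumor-mouse blood replicate 2, 3 or 4 or tumor replicate 1 or 2 (adjusted p of 0.0522 to 0.105), and the brain call without tumor-mouse blood replicate 3 (0.0505).

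The regulatory kinases moved apart. Pdk1, which inhibits pyruvate dehydrogenase and so keeps pyruvate from being turned into acetyl-CoA, was at 13.2, 14.3, 10.4 and 9.54 CPM in sham blood, 6.82, 13.1, 35.4 and 28.2 in tumor-mouse blood, 13.9, 18.8, 9.46 and 18.8 in brain, 23.4, 37.2, 25.9 and 44 in liver and 92.9, 93.8, 97.2 and 72.2 in tumor. Tumor libraries held 72.2 to 97.2 CPM and no other library more than 44.0. Pdk1 was 4.26-fold higher in tumor than in blood (log2 fold change 2.09 ± 0.37 SE, adjusted p = 0.000208). Pfkfb3 and Pfkfb4 make and remove the sugar phosphate that activates phosphofructokinase. Pfkfb4 was at 605, 332, 553 and 530.4 CPM in sham blood, 529, 733, 492 and 486 in tumor-mouse blood, 399, 441, 243 and 349.9 in brain, 339, 404, 328 and 194 in liver and 60.8, 106, 48.9 and 130.1 in tumor. The tumor libraries were the 4 lowest of the 20. Pfkfb4 was 6.47-fold lower in tumor than in blood (log2 fold change -2.69 ± 0.30 SE, adjusted p = 8.6e-07), and lower than in brain (log2 fold change -2.05 ± 0.29 SE, adjusted p = 3.3e-05) and liver (log2 fold change -1.87 ± 0.29 SE, adjusted p = 0.000146). Pfkfb3 ranged over 71.6 to 279.9 CPM in the tumor and 95.1 to 163 in blood and did not pass (log2 fold change 0.48 ± 0.32 SE, adjusted p = 0.297). The tumor libraries of Pfkfb3 spread about 4-fold, with replicate 5 highest.

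Among the transporters, the glucose transporters Slc2a1 and Slc2a3 went opposite ways. Slc2a3 was at 1938, 1339, 1375 and 1260.1 CPM in sham blood, 1303, 1900.2, 1001 and 888 in tumor-mouse blood, 1804, 1686, 1172 and 1594 in brain, 1011, 1513, 982 and 669 in liver and 78.5, 248, 129 and 271 in tumor. Its 4 tumor libraries, at 78.5 to 271 CPM, were the lowest of the 20 and no other library was below 669. Slc2a3 was 7.01-fold lower in tumor than in blood (log2 fold change -2.81 ± 0.34 SE, adjusted p = 2.44e-06), with like falls against brain (log2 fold change -3.11 ± 0.35 SE, adjusted p = 1.49e-06) and liver (log2 fold change -2.52 ± 0.34 SE, adjusted p = 2.71e-05). Slc2a1, a transporter of many tumors, ranged over 401 to 489 CPM in the tumor, 173 to 267 in tumor-mouse blood and 297 to 468 in brain. It was 2.07-fold higher in tumor than in blood (log2 fold change 1.05 ± 0.26 SE, adjusted p = 0.00491) and did not pass between tumor and brain (log2 fold change 0.23 ± 0.26 SE, adjusted p = 0.589).

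The monocarboxylate transporters move lactate across the cell membrane. Slc16a1, which works in both directions, was at 0, 3.7, 5.09 and 1.65 CPM in sham blood, 2.2, 1.75, 2.14 and 2.09 in tumor-mouse blood, 19.7, 7.87, 33.3 and 17 in brain, 2.81, 5.39, 6.55 and 11.8 in liver and 59.4, 55.8, 81.6 and 18.6 in tumor. All blood libraries were at or below 5.09 CPM, and the brain and tumor libraries lay above all of them. Slc16a1 was 26.3-fold higher in tumor than in blood (log2 fold change 4.72 ± 0.86 SE, adjusted p = 0.000268) and higher in brain than in blood (log2 fold change 3.25 ± 0.81 SE, adjusted p = 0.0195). The brain call ended without tumor-mouse blood replicate 1, 2 or 3 or brain replicate 4 (adjusted p of 0.058 to 0.0648). Slc16a3, the lactate exporter, ranged over 608 to 1686 CPM in sham blood, 312 to 504 in tumor-mouse blood, 578 to 1338 in brain, 805 to 1382 in liver and 463 to 598 in the tumor. It was higher in liver (log2 fold change 1.49 ± 0.30 SE, adjusted p = 0.00344) and brain (log2 fold change 1.05 ± 0.29 SE, adjusted p = 0.0397) than in tumor-mouse blood and lower in tumor-mouse than in sham blood (log2 fold change -1.31 ± 0.30 SE, adjusted p = 0.013). The brain call ended without any 1 of 13 libraries, among them each of tumor-mouse blood and brain replicates 2, 3 and 5 (adjusted p of 0.0512 to 0.191), and the call between the blood groups ended without sham replicate 1 or tumor-mouse replicate 3 or 4 (adjusted p of 0.0536 to 0.0714).

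The members did not move as one within the tumor. Tumor replicate 5 held the most neutrophil markers, 12164 CPM, and the fewest epithelial markers, 1098 CPM, while replicate 1 held the fewest neutrophil markers, 4093 CPM, and the most monocyte and macrophage markers, 10496 CPM. Of the 28 members that were higher in the tumor, replicate 5 had the lowest value in 18 and the highest in 4. These 4 were Egln3 at 372 CPM, Ankrd37 at 59.4, Ddit4 at 74.0 and P4ha1 at 169. Replicate 1 had the highest value of 15 of the 28, Tpi1 at 819.8 CPM and Ndrg1 at 216 among them, and the lowest of 6. Fibroblast markers summed to 782 and 311 CPM in replicates 1 and 3 and to 24.58 and 18.32 in replicates 2 and 5, and P4ha2 was at 47.6 and 28.7 CPM in the first pair and at 12.2 and 4.20 in the second. The part of these cells in the spread was not tested. With the tumor arm limited to replicates 2 and 5, a choice made after seeing the data, 22 members were higher and 5 lower than in blood, and Aldoc, Car9, Eno1, Hif1a, Ldhb, Mxi1 and Ndrg1 no longer passed (adjusted p of 0.0506 to 0.237). With the sequencing lane as a term, Aldoc, Car9, Gapdh, Gpi1, Ldhb and Mxi1 no longer passed (0.0542 to 1.0). The tumor libraries were in lanes 2, 3 and 5 and those of tumor-mouse blood in lanes 1 and 4, with no lane in common. The lane term can thus adjust this comparison only through the other groups, and lane and source cannot be fully told apart in it.

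The tumor was also set against the other tissues. Of the 15 enzymes, 9 were higher in tumor than in brain and 9 higher than in liver, and 2 and 1 were lower. Of the 11 other hypoxia-induced genes, 6 were higher than in brain and 7 higher than in liver. Bnip3l, lower in tumor than in blood, stood at log2 fold changes of -0.23 against brain and 0.01 against liver and passed neither test. Slc16a1 was higher in tumor than in liver (log2 fold change 3.02 ± 0.79 SE, adjusted p = 0.017), a call that ended without liver replicate 1 or 2 or tumor replicate 3 (adjusted p of 0.056 to 0.0577) and with lane as a term (0.423), and did not pass against brain (log2 fold change 1.47 ± 0.75 SE, adjusted p = 0.191). Pfkfb3 was higher (log2 fold change 1.08 ± 0.32 SE, adjusted p = 0.0393) and Slc16a3 lower (log2 fold change -1.16 ± 0.29 SE, adjusted p = 0.0134) in tumor than in liver only, although the difference between these contrasts was not tested. Both calls ended without single libraries, Pfkfb3 without liver replicate 1, 2 or 4 or tumor replicate 3 or 5 (adjusted p of 0.0513 to 0.171) and Slc16a3 without liver replicate 2 or 3 or tumor replicate 3 (0.0539 to 0.0703). Against the liver, Ddit4 lost its call without liver replicate 1 or 2 (0.0519 and 0.0598), and against the brain Gapdh lost it without brain replicate 3 or tumor replicate 1 (0.0572 and 0.0585).

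Brain and tumor-mouse blood libraries differed in 10 members, of which only Pgam1 is an enzyme of the steps to pyruvate. Higher were the lactate transporters Slc16a1 and Slc16a3, Ldhb, Ddit4, Pgam1, Adm and P4ha2, and lower were Egln3 (log2 fold change -1.21 ± 0.33 SE, adjusted p = 0.0343), Ankrd37 (log2 fold change -1.48 ± 0.39 SE, adjusted p = 0.0301) and Bnip3l. In brain libraries Egln3 ran from 7.39 to 16.3 CPM and in blood from 18.8 to 41.6, with no overlap. Egln3 lost its call without tumor-mouse blood replicate 2 or 4 or brain replicate 3 or 4 (adjusted p of 0.056 to 0.119), and Ankrd37 without tumor-mouse blood replicate 1, 2 or 3 or brain replicate 4 (0.0521 to 0.0656). Against blood, the brain libraries also had 7 of 8 microglia markers higher (summed to 401 to 1556 CPM against 129 to 227), 6 of 8 endothelial markers (97.49 to 295 against 12.78 to 20.15) and 6 of 12 monocyte and macrophage markers (1836 to 7197 against 1093 to 1486). Of the fibroblast markers, 3 of 8 were higher in the brain (14.3 to 20.66 CPM against 0 to 1.564). The part of all these cells in these results was not tested. Brain replicate 3 stood apart, with 7197 CPM of monocyte and macrophage markers against 1836 to 2738 in the other 3, and brain replicate 4 held 1648 CPM of a hepatocyte list that includes Ttr, which the choroid plexus also makes. Over the brain libraries this list averaged 465 CPM and Ttr alone 464, while Alb averaged 0.51. Over brain replicates 2 and 5 alone, chosen after seeing the data, 4 members were higher and 0 lower than in blood, and with lane as a term 3 were higher and 1 lower, with Ankrd37, Egln3, Ldhb, Pgam1, Slc16a1 and Slc16a3 at adjusted p-values of 0.0639 to 0.602.

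Liver against blood showed 5 members. Slc16a3, Pfkp, Adm and P4ha2 were higher and Bnip3l was lower, as given above. Also higher in the liver libraries were 7 of 12 monocyte and macrophage markers (2918 to 4642 CPM against 1093 to 1486), 5 of 10 epithelial (66.67 to 384 against 19.54 to 38.44), 5 of 8 hepatocyte (31.88 to 59.73 against 0.06541 to 0.4533) and 3 of 8 fibroblast markers (3.155 to 72.07 against 0 to 1.564), and their part was not tested. With library totals in place of TMM the split became 4 higher and 2 lower. Tpi1 was above blood in every liver library, but the change did not pass (log2 fold change 0.62 ± 0.19 SE, adjusted p = 0.0656). Between brain and liver, Gpi1 was higher in the brain (log2 fold change 0.86 ± 0.19 SE, adjusted p = 0.013), and Egln3 (log2 fold change -1.31 ± 0.33 SE, adjusted p = 0.0328) and Egln1 (log2 fold change -0.88 ± 0.23 SE, adjusted p = 0.0425) were lower. Gpi1 lost its call without brain replicate 2 or 5 or liver replicate 1 or 4 (adjusted p up to 0.0772), Egln3 without brain replicate 3 or 4 or liver replicate 2 or 4 (up to 0.108), and Egln1 without any liver library, brain replicate 2, 3 or 4, sham replicate 2 or tumor replicate 2 (up to 0.137). Of the 3, none passed with lane as a term, and library totals gave 2 higher and 2 lower, DESeq2's size factors 2 and 1.

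Blood of tumor mice differed from sham blood in 5 members, a count near the share of all genes that reached 10 CPM. Gpi1 (log2 fold change 0.95 ± 0.19 SE, adjusted p = 0.00463), Ldha and Gapdh were higher, and Ndrg1 and Slc16a3 were lower. Sham replicate 1 stood above the other 3 sham libraries for Slc16a3, at 1686 CPM against 608 to 1087, for Hif1a, at 404 against 118 to 246, and for Slc2a1, at 288 against 98.4 to 166. Sham blood held 897 to 1790 CPM of 6 B cell markers and tumor-mouse blood 69.31 to 127, and the part of B cells was not tested. With lane as a term, Ldha no longer passed (adjusted p = 0.0567).

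Isoenzymes and paired transporters were then compared by the share of 1 gene in the summed CPM per kb of its family, with an exact two-sided permutation test over libraries. The smallest p that 4 against 4 libraries allow is 0.0286, and no p adjusted over the 24 tests passed 0.05. Hk2 took 39.5% ± 7.27 of the hexokinase level in the tumor and 5.00% ± 2.26 in tumor-mouse blood (SD, n = 4). The tumor libraries held 29.6%, 40.0%, 41.5% and 47% and the blood libraries 8.01%, 5.30%, 2.75% and 3.96%, so the groups did not overlap (exact permutation p = 0.0286, adjusted p = 0.137). The share of Hk3 in the same libraries was 78.9% ± 3.28 in blood and 37.1% ± 5.64 in the tumor.

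Slc2a1 took 84.2% ± 5.86 of the level of the pair with Slc2a3 in the tumor and 27.2% ± 7.62 in tumor-mouse blood (SD, n = 4). Its share was 91.3%, 80.3%, 86.7% and 78.7% in the tumor libraries and 29.8%, 15.8%, 31.4% and 31.7% in the blood libraries, which did not overlap (exact permutation p = 0.0286, adjusted p = 0.137). Slc16a3 made up 99.4% ± 0.173 of the lactate transporter pair in tumor-mouse blood, 97.0% ± 2.36 in brain and 88.9% ± 5.50 in the tumor (exact permutation p = 0.0286 for both tissues against blood, adjusted p = 0.137). Ldhb made up 0.730% ± 0.384 of its pair in tumor-mouse blood and 3.93% ± 2.58 in brain, at the same p. The share of Pfkp in its trio was 30.4% ± 4.25 in tumor and 34.5% ± 7.08 in blood, and the values overlapped (exact permutation p = 0.371).

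**Figure D5:**
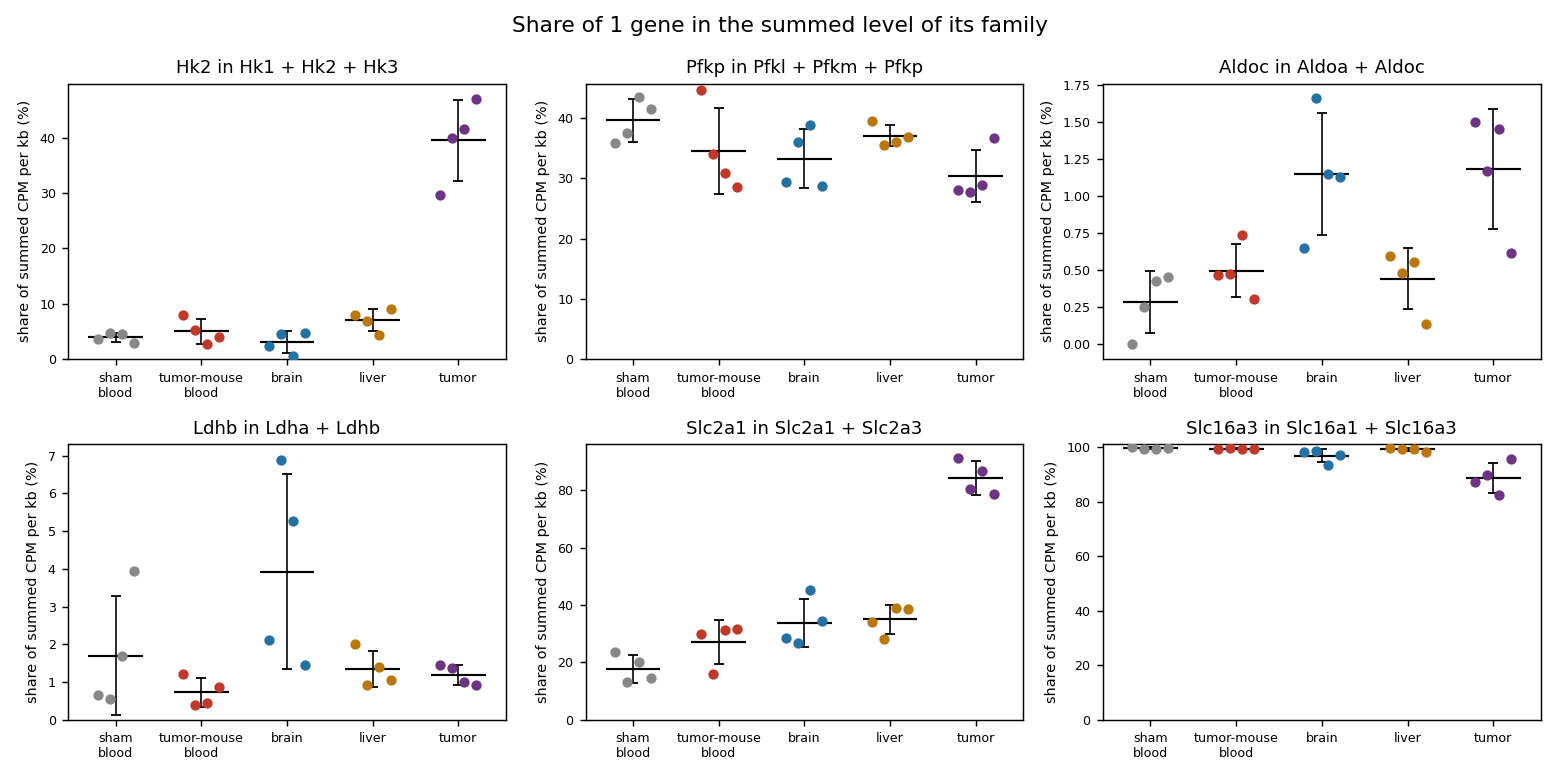
Share of 1 gene in the summed CPM per kb of its family, in percent, with 1 point per library, a line at the group mean and bars of 1 SD (n = 4 per group). The share of Hk2 is 29.6% to 47% in the tumor and at most 9.10% elsewhere, and that of Slc2a1 is 78.7% to 91.3% in the tumor and at most 45.2% elsewhere.

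Wider lists of related genes were counted in tumor against blood, to be read beside the 26.7% higher and 29.5% lower among all genes that reached 10 CPM. Of 8 genes of the pentose phosphate pathway, which makes NADPH for the oxidative burst, 4 were lower in the tumor than in blood and the other 4 did not pass, with a median log2 fold change of -0.95. G6pdx, the entry enzyme, averaged 84.0 ± 13 CPM in the tumor and 765 ± 166 in blood (SD, n = 4), a log2 fold change of -3.19 ± 0.23 (SE, adjusted p = 6.43e-09). Taldo1, transaldolase, changed by -2.82 ± 0.22 (adjusted p = 2.15e-08), Pgd by -1.53 ± 0.24 (adjusted p = 4.52e-05) and Tkt, transketolase, by -1.43 ± 0.20 (adjusted p = 1.41e-05). Of 16 genes of glycogen metabolism, 2 were higher and 4 lower, shares that do not exceed that background. Pygl, the glycogen phosphorylase of liver and myeloid cells, averaged 626 CPM in the tumor and 2448 in blood (log2 fold change -1.97 ± 0.23 SE, adjusted p = 1.32e-06), while Gys1, a glycogen synthase, averaged 89.5 and 29.8 (1.59 ± 0.20, adjusted p = 3.23e-06). Gaa, which breaks down glycogen in lysosomes, was also higher (2.29 ± 0.36, adjusted p = 6.03e-05) and Ppp1r3d, a targeting subunit of a phosphatase that acts on glycogen enzymes, lower (-2.04 ± 0.31, adjusted p = 2.92e-05).

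Of 35 tested genes on the branches of glycolysis, 7 were higher and 8 lower in tumor than in blood, at a median of 0.05 on the log2 scale, which is no more than the background in either direction. Adpgk, an ADP-dependent glucokinase, averaged 20.3 CPM in the tumor, 347 in tumor-mouse blood and 941 in brain (log2 fold change of tumor against blood -4.10 ± 0.48 SE, adjusted p = 1.5e-06). Between brain and blood Adpgk did not pass (log2 fold change 1.44 ± 0.43 SE, adjusted p = 0.0564). Slc2a6, a glucose transporter of lysosomes in myeloid cells, averaged 33.1 CPM in the tumor and 332 in blood (-3.33 ± 0.27, adjusted p = 2.28e-08), and Slc2a8 was higher (2.32 ± 0.52, adjusted p = 0.002). Bpgm, which in red cells makes the ligand that loosens oxygen from hemoglobin, averaged 602 CPM in tumor-mouse blood and 8.59 to 9.48 in brain, liver and tumor. All 7 erythroid markers were also lower in each tissue than in blood, and the part of red cells was not tested.

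Of 15 genes of HIF subunits and regulators, 3 were higher and 4 lower in tumor than in blood, again no more than the background. Epas1, which encodes the HIF-2 alpha subunit and is known from endothelium, averaged 2.96 CPM in the tumor, 0.136 in tumor-mouse blood and 23.1 in brain. The 8 endothelial markers summed to 97.49 to 295 CPM in brain and 12.78 to 20.15 in blood, and the part of endothelium in the level of Epas1 was not tested. Cul2, a scaffold of the ligase that degrades HIF, was higher (log2 fold change 2.92 ± 0.31 SE, adjusted p = 5.26e-07), and Hif1an (-1.07 ± 0.28, adjusted p = 0.00599) and Egln2 (-1.0 ± 0.15, adjusted p = 4.42e-05), both hydroxylases of HIF, were lower. Of 47 further hypoxia response genes, 28 were higher and 3 lower in the tumor than in blood at a median of 1.59, 14 were higher in liver at 0.92, and 7 were higher and 1 lower in brain at 0.51. Among all genes that reached 10 CPM, 10.2% were higher and 3.57% lower in liver than in blood, and 7.32% and 4.06% in brain than in blood. Hilpda, a lipid droplet protein, averaged 4.46 CPM in tumor-mouse blood, 108 in brain, 407 in liver and 649.6 in the tumor (tumor against blood 7.18 ± 0.72 SE, adjusted p = 2.38e-07). Ak4, Vldlr and Lox averaged 11.8, 16.4 and 18 CPM in the tumor and at most 0.0159 CPM in tumor-mouse blood.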

How the data were processed

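RNA of sorted mouse neutrophils (20 libraries, 5 groups of 4) was amplified with SMART-Seq v4 and sequenced as single reads. The authors deposited raw counts per gene and a table of log2 values (rlog) made with DESeq2. The submitters' processing notes name mm10 and DESeq2; the aligner, the counter and its annotation were not given in the sources used here, nor was the handling of reads with several places in the genome. The kit does not mark strand. All 20 columns were mapped to a sample by name. Gene symbols came from the count table, where 1825 entries had no symbol and 6 repeated entries were dropped, and exon lengths and positions from GENCODE M21. The members and lists were chosen with earlier results of these data known.

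Counts were fitted across all 28762 genes in all 5 groups with edgeR 4.0.16 (TMM, quasi-likelihood F-test, R 4.3.3) and adjusted by Benjamini-Hochberg, with an adjusted p under 0.05 as the call and a log2 fold change of 2 as the second rule. The standard error is the log2 fold change over the square root of F. Bounds against a group at 0 counts use 3 counts over the group and, since PCR reads carry no molecular identifiers, cover counting error only. Values in every library are given for the 20 members with a call in a comparison with blood, a mean of at least 10 CPM in a group and the largest difference between tumor and blood. Shares were compared by an exact permutation test (scipy 1.17.1). Alternatives were DESeq2 1.42.0 and its size factors, limma 3.58.1 on rlog values, filterByExpr, the 2 groups alone, lane as a term, a replicate block and each library left out, and, added after seeing the data, library totals and 2 smaller arms.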

Additional observations from a re-analysis of the deposited data

Results flagged for a closer look

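In 10 of 188 groups of 4 libraries, 1 library lay far from the other 3, by the gap to its neighbour over the range of the group. Chance gives such a gap in about 1 in 20 groups, so a number like this is near what chance gives. Sham blood replicate 1 was the high library for 4 genes: Pfkp at 114 CPM against 76.2 to 80.1, Aldoa at 1208 against 729 to 777, Slc2a3 at 1938 against 1260.1 to 1375 and Bnip3 at 87.3 against 53.9 to 57.8. Sham blood replicate 2 held the Adm reads of its group, at 0.659 CPM against 0. In the tumor, Gpi1 was at 871 CPM in replicate 1 against 565 to 609.6, and Pdk1 at 72.2 CPM in replicate 5 against 92.9 to 97.2. In the liver, replicate 4 was high for Pfkp at 147 CPM against 114 to 116 and low for Aldoc at 0.871 against 4.70 to 4.95. In the brain, Aldoa was at 908 CPM in replicate 2 against 673 to 691.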

How the results depend on the processing

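Of the 107 calls over 7 comparisons of the 38 members, 65 held under every alternative and 0 changed direction, and 42 pairs without a call gained one under some alternative. With a log2 fold change of at least 2, the members higher and lower were 14 and 2 in tumor against blood, 11 and 2 against brain, 8 and 1 against liver, 4 and 0 in brain against blood, 2 and 0 in liver against blood, and 0 and 0 between brain and liver and between the blood groups. DESeq2 called 7 higher and 2 lower in liver against blood, 3 and 6 in brain against liver, and 4 lower in tumor-mouse than in sham blood. Lane as a term left 3 higher and 1 lower in brain against blood and 0 and 0 in brain against liver. Fitting only the 2 groups left 0 lower in brain against blood and 2 higher in brain against liver, filterByExpr gave 2 higher there, and DESeq2's size factors 2 higher and 1 lower. The replicate block also gave 2 higher and 1 lower in brain against liver, 25 and 6 in tumor against blood and 7 and 2 in brain against blood. With the block 10 of the 107 calls ended. In tumor against blood these were Aldoc, Hif1a and Kdm3a (adjusted p of 0.0671 to 0.168). In brain they were Slc16a1 and Ankrd37 against blood (0.0529 and 0.0538) and Egln1 against liver (0.122). The others were Adm in liver against blood (0.064), Adm and Gapdh in tumor against brain (0.0523 and 0.0569) and Pfkfb3 in tumor against liver (0.117). Samples of the same number deviated together (a correlation over 0.1) in 5 of 33 pairs, with a median of 0.0197. All 5 were between libraries of tumor mice. The 33 also include pairs of sham and tumor-mouse libraries, which cannot share a mouse. Pairs of different numbers also passed 0.1, such as liver replicate 4 and tumor replicate 3 at 0.2054. The check thus cannot decide whether the numbers pair the samples. The main fit treats libraries that may share a mouse as independent. Leaving out 1 library gave 24 to 28 higher and 5 to 6 lower in tumor against blood, 18 to 22 and 4 against brain, 18 to 24 and 3 to 4 against liver, 4 to 8 and 1 to 4 in brain against blood, 3 to 5 and 1 in liver against blood, 0 to 2 and 0 to 3 in brain against liver, and 2 to 4 and 0 to 3 between the blood groups. Chosen after seeing the data, library totals gave 2 lower in liver against blood, 2 higher in brain against liver and 32 higher and 4 lower in tumor against blood, and brain replicates 2 and 5 alone gave 4 higher and 0 lower against blood. With tumor replicates 2 and 5 alone, 15 were higher and 3 lower than in liver. DESeq2's size factors moved the median log2 fold change of all genes by 0.13 in tumor against blood, 0.12 against brain and 0.15 against liver. Over all genes DESeq2 called 1104 higher and 1438 lower between the blood groups, against 468 and 486. The cause of these shifts was not tested. Adm, P4ha2, Car9 and Pfkm, near 0 in blood, are limited by depth.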
